A study of Mus musculus with 45 samples.

Results

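The cortex and the hippocampus were compared gene by gene in mice that had received only the oil vehicle of a tamoxifen experiment. The comparison used 13 of the 45 RNA libraries of the series, chosen by their tissue and treatment labels: 7 from cortex (3 female, 4 male) and 6 from hippocampus (3 female, 3 male). They came from 7 animals aged 3 months, 6 of which gave both tissues. Every animal here had received sunflower oil without tamoxifen, and the labels give no strain, genotype or transgene. The rest of the series holds the retina and the tamoxifen animals, of which the cortex and hippocampus libraries are used once, at the end. The series' title concerns Cre induction by tamoxifen, so the vehicle animals are its controls and the difference between their tissues is a description that the design allows.

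The hippocampus is a folded sheet of older, simpler cortex. Its dentate gyrus is packed with small granule cells whose mossy fibre axons run to the CA3 field, and CA3 pyramidal neurons project to CA1, with the narrow CA2 field between them. The neocortex is built of layers: upper-layer neurons project within the cortex, layer 4 receives thalamic input, and layers 5 and 6 project below the cortex. Both tissues hold the same glial and vascular cell classes and related inhibitory interneurons, and in pieces of whole tissue a lower transcript level can reflect fewer cells of a type or less RNA per cell, which cannot be told apart here.

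Values are CPM, the counts of a gene scaled to a library of 1000000 counts after TMM adjustment. A gene was called when edgeR's quasi-likelihood test gave an adjusted p under 0.05 (Benjamini-Hochberg over 15024 genes), and log2 fold changes are hippocampus minus cortex, averaged over the sexes, so a positive value means higher in hippocampus. The libraries of one group came from separate animals. Gene coordinates are those of RefSeq on GRCm38.p6.

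The libraries of the tissues differed in more than their cells. Totals ran from 10259768 to 20192115 counts in cortex and from 31154309 to 44153244 in hippocampus, without overlap. The sex labels were checked with Xist, at least 299.3 CPM in female and at most 0.968 CPM in male libraries of both tissues, and Ddx3y, at least 51.7 CPM in male and at most 0.162 CPM in female libraries. The male cortex library of animal 966 held dentate transcripts above the other cortex libraries, with Dsp at 19.5 CPM against at most 1.56 and Prox1 at 25.0 CPM against at most 10.7. In the male hippocampus library of animal 963 the upper-layer gene Cux2 was at 42.6 CPM, against at most 24.9 in the other hippocampus libraries. The summed level of the upper-layer genes there (306 CPM) lay within the range of the others (267 to 311 CPM), but that list holds genes higher in hippocampus. Mef2c (279 CPM against at most 214) and Cckbr (20.4 against at most 11.8) were also highest there. Foxp2, Tbr1, Cplx3 and Scn4b were too, while Rorb (25.0 CPM) was not. The summed CA3 genes were lowest in that library (435 CPM against at least 529) and the summed CA1 genes highest (1134 against at most 1027). The cause was not tested. Both tissues of female animal 958 were rich in Ttr, the thyroid hormone carrier of the choroid plexus, at 1113 CPM in cortex and 2107 in hippocampus against at most 290.5 and 98.3 CPM in the other libraries. Every cortex library held rod photoreceptor RNA: the rod transducin subunit Gnat1 measured 1.56 to 14.4 CPM (median 4.23) in cortex and 0 to 0.114 CPM (median 0.0843) in hippocampus. Of the 10 rod genes listed, 8 of 9 tested were higher in cortex and none in hippocampus, and their summed level was 16.7 to 64.7 CPM in cortex and 4.92 to 7.26 CPM in hippocampus. The part of rod RNA in other values was not tested.

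Gene length and opposite-strand neighbours also moved with tissue. From the lowest to the highest quintile of summed exon length, the median log2 fold change went from -0.22 through -0.10, -0.01 and 0.08 to 0.23, over 14360 genes with a length. With offsets that remove this trend from each library, the 5 medians lay between -0.02 and -0.0006, and both the offsets and the look at neighbours were chosen after seeing the data. A gene whose neighbour on the other strand (overlapping or within 5000 bases) had a higher level made up 19.1% of all genes tested, 12.5% of those over 2-fold higher in hippocampus and 37.8% of those over 2-fold higher in cortex. Over 8-fold, the shares were 8.7% of 69 hippocampus genes and 60.6% of 216 cortex genes. The labels name the same library kit for both tissues, whether reads were counted by strand is not given in the sources used here, and the part of either pattern in single results was not tested. Where length offsets end the call of a named gene, or its neighbour is more abundant and the gene passed, it is stated beside the gene.

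**Figure D1:**
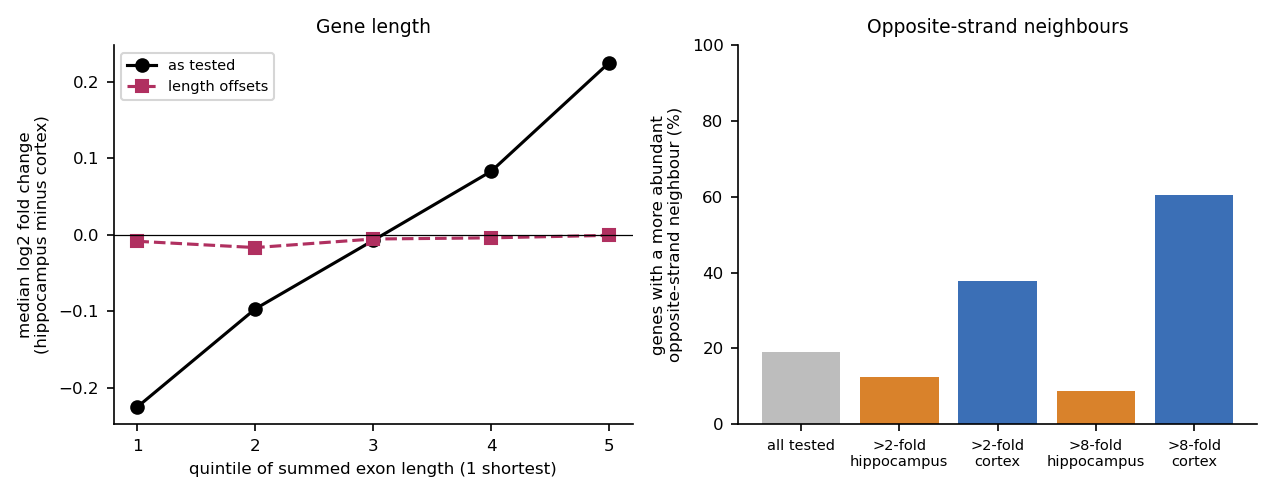
Left, the median log2 fold change (hippocampus minus cortex) in each quintile of genes by exon length, as tested (filled circles) and with length offsets (squares): it rises from -0.22 to 0.23 as tested. Right, the percentage of genes whose opposite-strand neighbour is more abundant, 19.1% of all genes tested and 60.6% of the genes over 8-fold higher in cortex.

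Most genes differed in level between the tissues, mostly by small amounts. Of 15024 genes tested, 4526 (30.1%) were higher in hippocampus and 4618 (30.7%) were higher in cortex. The counts of every gene list below are to be read beside these 2 shares. A difference over 2-fold was found for 727 genes (4.84%) toward hippocampus and 920 (6.12%) toward cortex, and the median over all genes was -0.01. The libraries of the tissues did not overlap for 5097 genes (33.9%). Without genes that have a more abundant opposite-strand neighbour, the cortex count over 2-fold fell to 583 while the hippocampus count was 620, so the excess toward cortex was not present among the remaining genes. Leaving out cortex 966 and hippocampus 963 together gave 816 genes toward hippocampus and 1005 toward cortex.

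Genes of the dentate granule cells were higher in hippocampus, 14 of 15 passing in that direction and none in the other, with a median log2 fold change of 1.62. Desmoplakin (Dsp), a plaque protein of desmosomes that marks granule cells in the mouse brain (gene ID 109620, chromosome 13, 38151294 to 38198577), measured 0.133 to 19.5 CPM (median 0.733) in cortex and 72.1 to 109.7 CPM (median 84.6) in hippocampus. No cortex library reached the lowest hippocampus library, and the highest cortex value was that of animal 966 (log2 fold change 5.41 ± 0.56 SE, adjusted p = 2.55e-07). Without cortex 966 and hippocampus 963 the Dsp difference was 7.03. Prox1, the homeodomain factor that maintains granule cell identity (gene ID 19130, chromosome 1, 190121777 to 190170680), lay at 7.82 to 25.0 CPM (median 9.38) in cortex and 80.6 to 115 CPM (median 93.4) in hippocampus (log2 fold change 3.12 ± 0.19 SE, adjusted p = 4.78e-10). The secreted synaptic organiser C1ql2, which mossy fibres release onto CA3, lay at 3.71 to 21.2 CPM (median 5.79) in cortex and 64.3 to 95.5 CPM (median 84.9) in hippocampus (log2 fold change 3.52 ± 0.26 SE, adjusted p = 3.58e-09). The tissues again did not overlap for either gene. The ciliogenic factor Rfx3 (1.73 ± 0.09) and the guanine nucleotide exchange factor Dock10 (1.62 ± 0.10) had the smallest p of the list. Lactase (Lct) was 4.51 ± 0.48 on the log2 scale, and 5.58 without the libraries of cortex 966 and hippocampus 963. The member that did not pass was the calcium buffer calbindin (Calb1), with medians of 139.6 and 139 CPM.

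Genes of all 3 pyramidal fields were mostly higher in hippocampus. Of 8 CA1 genes, 7 were higher in hippocampus, and of 9 CA3 genes 8 were, against 1 lower in each list. All 7 CA2 genes were higher. Fibcd1, a chitin-binding receptor that marks CA1, measured 8.61 to 22.1 CPM (median 15.1) in cortex and 194 to 259 CPM (median 223) in hippocampus (log2 fold change 3.88 ± 0.13 SE, adjusted p = 5.43e-13), without overlap. The protease inhibitor gene Spink8 (4.18 ± 0.33) and the Nodal antagonist Lefty1 (3.38 ± 0.34) were also higher among the CA1 genes, Lefty1 by 3.99 without cortex 966 and hippocampus 963. Wfs1, the endoplasmic reticulum protein mutated in Wolfram syndrome, also labels upper cortical neurons, and its levels of 81.2 to 151 CPM (median 109.7) in cortex and 142 to 229 CPM (median 187) in hippocampus overlapped (log2 fold change 0.63 ± 0.11 SE, adjusted p = 1.21e-04). The lower CA1 gene was Mpped1, at -0.17 ± 0.05, whose call was lost with the animal as a block (adjusted p = 0.0742).

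Among CA2 genes, the adhesion protein Amigo2 lay at 5.90 to 8.74 CPM (median 6.05) in cortex and 30.5 to 48.9 CPM (median 37.6) in hippocampus (log2 fold change 2.47 ± 0.11 SE, adjusted p = 7.59e-12), and the signalling scaffold Rgs14, which restrains plasticity in CA2, at 39.0 to 56.2 CPM (median 47.5) and 118 to 147 CPM (median 121) (log2 fold change 1.45 ± 0.08 SE, adjusted p = 5.12e-11). The vasopressin receptor Avpr1b, a CA2 receptor, held 4 counts in cortex, all in animal 966, and reached 0.401 to 1.36 CPM (median 0.679) in hippocampus. CA3 genes included Iyd, an iodotyrosine deiodinase, at 0 to 0.524 CPM (median 0.133) in cortex and 2.26 to 6.16 CPM (median 5.64) in hippocampus (log2 fold change 5.36 ± 0.42 SE, adjusted p = 7.82e-09). The Iyd value was 7.09 without the cortex of animal 955 and 4.44 with the animal as a block. The kainate receptor subunit Grik4, concentrated at mossy fibre synapses, was 1.71 ± 0.08, and the membrane-binding protein Cpne4 was 1.36 ± 0.08. The lower CA3 gene, Coch (-2.64 ± 0.23), has the more abundant opposite-strand neighbour Strn3. Hilar mossy cell genes were fewer: 3 of 6 were higher, led by calretinin (Calb2, 1.73 ± 0.11), and 1 was lower.

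**Figure D2:**
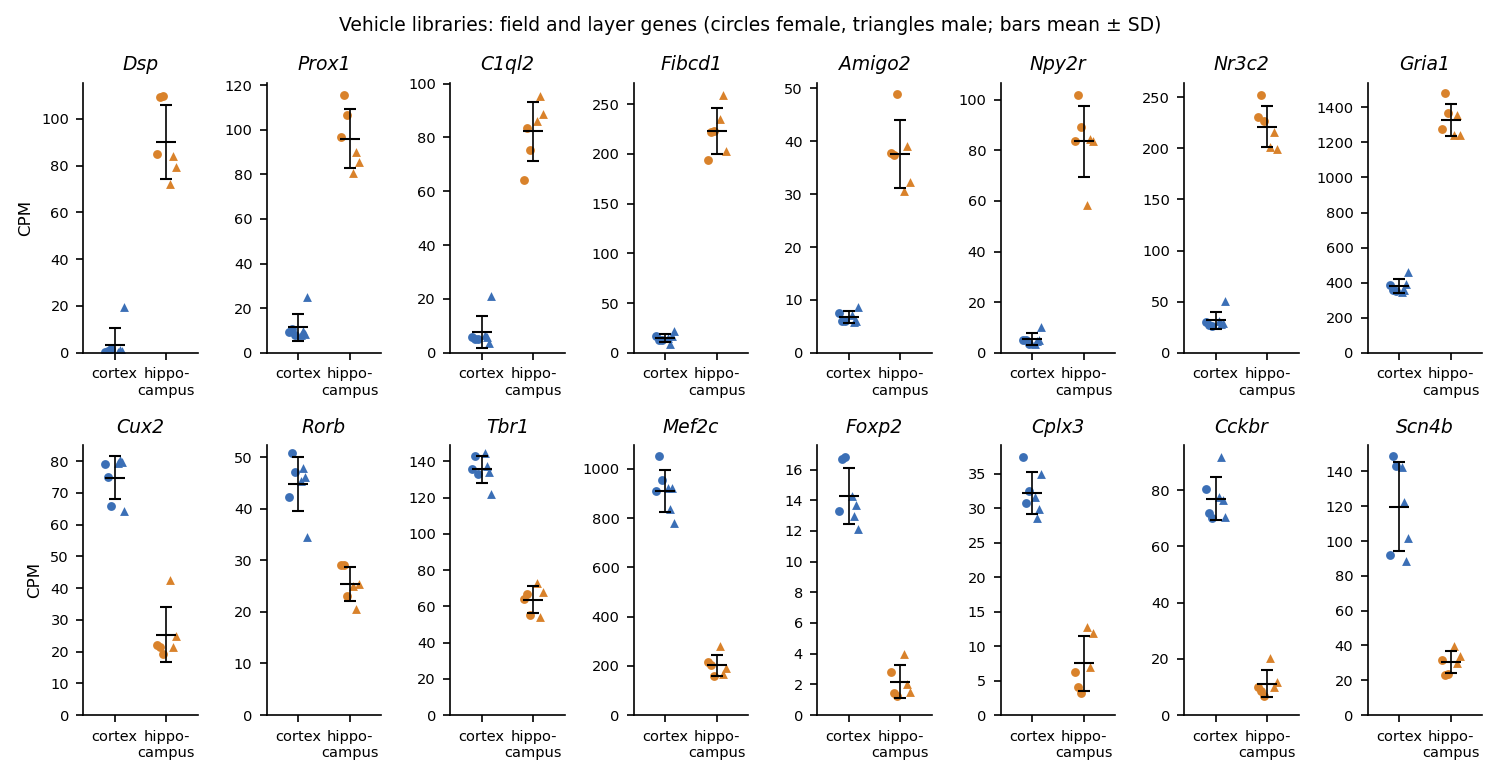
CPM of 16 genes in each of the 13 vehicle libraries, cortex in blue and hippocampus in orange, with circles for females, triangles for males and bars for the mean ± SD over libraries of a tissue. The tissues do not overlap in any panel, and 1 male cortex library (animal 966) lies above the others for Dsp, Prox1 and C1ql2.

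The dentate gyrus keeps a neurogenic niche in adult mice, and 7 of 12 genes of that lineage were higher in hippocampus. Neurod1, a basic helix-loop-helix factor of immature granule neurons, lay at 8.69 to 12.7 CPM (median 9.61) in cortex and 22.3 to 41.0 CPM (median 31.1) in hippocampus (log2 fold change 1.56 ± 0.09 SE, adjusted p = 2.34e-10). Sox11, a factor of newborn neurons, was 0.85 ± 0.07, the cyclin Ccnd2 0.76 ± 0.06, and Eomes, which marks intermediate progenitors, 1.22 ± 0.33 from medians of 0.340 to 0.672 CPM. Igfbpl1 (1.95 ± 0.22) lies beside the more abundant Aldh1b1 on the other strand. Doublecortin (Dcx), the microtubule protein of migrating neuroblasts, went the other way, at -0.22 ± 0.09, and its call was lost in 8 of the 13 fits that leave out 1 library (adjusted p up to 0.108). The proliferation genes Mki67 and Top2a did not pass, with medians of 1.996 and 2.25 CPM for Mki67 and 2.13 and 2.50 CPM for Top2a.

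Genes of the cortical layers went in both directions. Toward cortex went 4 of 6 upper-layer genes, 4 of 6 layer 4 genes and 7 of 17 layer 5 genes. The same direction held for 5 of 9 layer 6 genes and 4 of 6 layer 6b genes. Toward hippocampus went 2 upper-layer, 1 layer 4, 8 layer 5, 3 layer 6 and 1 layer 6b genes. Over all genes tested, 30.7% were higher in cortex and 30.1% in hippocampus. The median log2 fold change was 0.13 for layer 5 and -0.74 for layer 6. The layer 6 genes summed to 214 to 239 CPM in cortex and 230 to 304 CPM in hippocampus. The homeodomain factor Cux2 lay at 64.2 to 80.4 CPM (median 79.0) in cortex and 19.3 to 42.6 CPM (median 21.8) in hippocampus (log2 fold change -1.58 ± 0.12 SE, adjusted p = 9.41e-09), and the phospholipase-like Plcxd2 at 178 to 239 CPM (median 211) and 56.5 to 95.6 CPM (median 70.8) (log2 fold change -1.57 ± 0.09 SE, adjusted p = 2.25e-10). For both genes the lowest cortex library was above the highest hippocampus library. The other upper-layer genes were higher in hippocampus: the adhesion protein Mdga1 (2.58 ± 0.10) and the lymphangiogenic matrix protein Ccbe1 (2.21 ± 0.12). In layer 4, Rspo1, a secreted activator of Wnt signalling, fell from 12.2 to 19.7 CPM (median 17.0) in cortex to 0.506 to 2.20 CPM (median 1.10) in hippocampus (log2 fold change -3.79 ± 0.21 SE, adjusted p = 1.44e-10). The nuclear receptor Rorb, which patterns layer 4, measured 34.6 to 50.8 CPM (median 46.1) and 20.6 to 29.1 CPM (median 25.2) (log2 fold change -0.83 ± 0.09 SE, adjusted p = 2.91e-07).

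Layer 5 genes were not uniform. The zinc finger factor Bcl11b, needed for corticospinal neurons and also made by granule cells, lay at 44.7 to 68.5 CPM (median 54.8) in cortex and 198 to 265 CPM (median 218) in hippocampus (log2 fold change 2.005 ± 0.08 SE, adjusted p = 1.81e-12), and Crym, a thyroid hormone-binding crystallin, was 1.68 ± 0.07. Against these, the secreted protein gene Pamr1 was -2.21 ± 0.14 and the neuropeptide PACAP (Adcyap1) -1.73 ± 0.18. Fezf2, the selector of subcerebral projection neurons, had medians of 43.5 and 45.8 CPM in overlapping ranges and did not pass (0.13, adjusted p = 0.124). It passed when the cortex of animal 955 was left out. In layer 6 the forkhead factor Foxp2 lay at 12.1 to 16.8 CPM (median 13.7) in cortex and 1.23 to 4.01 CPM (median 1.78) in hippocampus (log2 fold change -2.75 ± 0.21 SE, adjusted p = 6.19e-09), and the neurotensin receptor Ntsr1, a label of corticothalamic cells, was -1.14 ± 0.16. Foxp2 was highest in the cortex libraries of animals 957, 958 and 963 (14.3 to 16.8 CPM). Those were also the highest cortex libraries in summed striatal genes (452 to 525 CPM). The part of striatal RNA in Foxp2 was not tested. Carbonic anhydrase 12 (Car12) was higher in hippocampus (2.40 ± 0.25). The subplate-derived layer 6b was marked by the complexin Cplx3, at 28.6 to 37.5 CPM (median 31.6) in cortex and 3.27 to 12.8 CPM (median 6.60) in hippocampus (log2 fold change -2.23 ± 0.15 SE, adjusted p = 9.33e-10), and by the matricellular protein Ctgf (-1.54 ± 0.13).

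Of 35 transcription factors of the forebrain, 19 were higher in hippocampus and 10 in cortex. Mef2c, an activity-regulated factor of cortical excitatory neurons (gene ID 17260, chromosome 13, 83504034 to 83667079), was the clearest toward cortex, at 779 to 1052 CPM (median 921) against 158 to 279 CPM (median 198) in hippocampus (log2 fold change -2.18 ± 0.10 SE, adjusted p = 2.22e-11). Tbr1, a T-box factor of early-born cortical neurons, lay at 122 to 144 CPM (median 136) in cortex and 54.1 to 73.1 CPM (median 65.6) in hippocampus (log2 fold change -1.09 ± 0.07 SE, adjusted p = 4.93e-10). Both were lower in each of the 6 hippocampus libraries than in any cortex library, yet neither was at 0 there. Lmo4, a LIM-domain cofactor, was -0.58 ± 0.04.

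Toward hippocampus, Zbtb20, a repressor that specifies CA1 and dentate neurons (gene ID 56490, chromosome 16, 43247284 to 43619123), lay at 2.23 to 4.72 CPM (median 3.22) in cortex and 20.6 to 29.7 CPM (median 22.7) in hippocampus (log2 fold change 2.77 ± 0.12 SE, adjusted p = 8.26e-12). The nuclear factor Nfib lay at 79.9 to 99.6 CPM (median 85.7) and 209.9 to 315 CPM (median 247) (log2 fold change 1.53 ± 0.05 SE, adjusted p = 7.31e-13), and the LIM-only protein Lmo3 at 43.8 to 50.3 CPM (median 48.2) and 112 to 160.2 CPM (median 131) (log2 fold change 1.46 ± 0.05 SE, adjusted p = 5.05e-13). The libraries did not overlap for any of these. Lhx9, a LIM homeodomain factor, was among the largest rises, from 0 to 1.40 CPM (median 0.204) in cortex to 17.1 to 28.6 CPM (median 21.7) in hippocampus (log2 fold change 6.22 ± 0.28 SE, adjusted p = 1.08e-11), and by 5.51 with the animal as a block. It was also listed as a gene of the thalamus and habenula, of which 9 of 16 tested were higher and 5 lower in hippocampus. Others of that list moved in opposite directions, with the kinase Prkcd at 1.51 ± 0.15 and the receptor-modifying protein Ramp3 at -2.30 ± 0.17. The habenular factor Pou4f1 was at most 0.204 CPM in every library of either tissue.

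The 15 largest rises were taken among genes that passed without overlap between tissues and averaged at least 5 CPM in hippocampus. Predicted genes, clones and pseudogenes were left out. The sodium-proton exchanger Slc9a4 rose from 0.266 to 0.874 CPM (median 0.508) in cortex to 18.3 to 32.6 CPM (median 27.4) in hippocampus (log2 fold change 5.70 ± 0.16 SE, adjusted p = 7.98e-14). Zcchc5, a zinc finger gene derived from a retrotransposon, rose from 0 to 0.932 CPM (median 0) to 3.92 to 7.05 CPM (median 6.02) (log2 fold change 7.38 ± 0.70 SE, adjusted p = 2.67e-07). All 16 of its cortex counts came from male animal 966, so the fitted value, which averages the sexes, depends on the prior count. With the animal as a block it was 5.09, below Slc9a4 (5.70) and Lhx9 (5.51) in the same fit, and without cortex 966 and hippocampus 963 it was 10.28. Shisa6, an auxiliary subunit that traps AMPA receptors at synapses, was the most abundant of the 15 in CPM, at 14.6 to 32.1 CPM (median 15.95) in cortex and 218 to 373 CPM (median 300.4) in hippocampus (log2 fold change 4.04 ± 0.16 SE, adjusted p = 2.57e-12). Others were the Notch ligand-like Dlk1 (4.52 ± 0.25), the tetraspanin Tspan18 (4.31 ± 0.17), the cytokine precursor Il16 (3.92 ± 0.24) and the keratin Krt2 (3.88 ± 0.23), beside Lhx9, Dsp, Iyd, Lct, Spink8, Npy2r and Fibcd1. A more abundant opposite-strand neighbour was found for 2 of the 15 (13.3%), among them Tspan18 (neighbour Trp53i11).

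Of the 15 largest falls, taken in the same way and so without clone-named genes such as 1700066J24Rik, 12 (80%) have a more abundant opposite-strand neighbour. Hipk4, a kinase gene, lay at 39.6 to 56.4 CPM (median 47.2) in cortex and held 2 counts over the 6 hippocampus libraries, a pooled ratio of 5016 (95% exact interval 1388 to 41431, counting error only). Its neighbour Pld3, a lysosomal exonuclease abundant in neurons, averaged 629 CPM over the libraries. Proz (neighbour Pcid2), Fam151a (Acot11) and Ccdc73 (Eif3m) held 2, 2 and 3 counts in hippocampus, with pooled ratios of 929 (256 to 7682), 571 (157 to 4729) and 521 (178 to 2531). The other 8 with such a neighbour, Gpr39, Slc30a2, Ankdd1b, Lrrc14b, Cabyr, Foxp3, Pkd2l2 and Pdzk1, lay between -5.01 and -7.30 on the log2 scale, each beside a more abundant gene. For all of these, reads of the neighbour and of the gene itself cannot be told apart without strand.

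The other 3 of the 15 were Cdr1 and rod genes, Gnat1 among them (-6.12). Cdr1, whose locus also gives the abundant antisense RNA that is processed to a circle, lay at 10.1 to 26.3 CPM (median 14.4) in cortex, 1692 counts, and had none in hippocampus, where a count of 0 allows up to 3 counts over the 6 libraries, so that cortex was at least 1127-fold higher. These counts cannot be assigned to a strand. In all, 16 genes had no count in any hippocampus library and at least 1 CPM on average in cortex, and no gene had the opposite pattern. Of the 16, 14 have an opposite-strand gene that overlaps or lies within 5000 bases, whatever its level. The share of all genes tested with any such neighbour is not given here, so whether 14 of 16 is high was not tested. The share of all genes tested given earlier counts only more abundant neighbours and cannot be set against it. The first of the 16 by level was 1700066J24Rik, at least 3362-fold higher in cortex. Dnase1 (at least 228-fold, beside Trap1) was the first of the 16 with a named protein after Cdr1.

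Among genes without a more abundant opposite-strand neighbour, a set picked after the values had been seen, the largest falls outside the rod genes included secreted and signalling proteins. Dkkl1, a Dickkopf-like secreted protein, lay at 18.4 to 24.6 CPM (median 23.0) in cortex and 0.614 to 3.72 CPM (median 1.02) in hippocampus (log2 fold change -4.20 ± 0.21 SE, adjusted p = 3.99e-11). The keratin Krt12 lay at 19.6 to 30.7 CPM (median 22.5) and 0.938 to 3.49 CPM (median 1.93) (log2 fold change -3.58 ± 0.18 SE, adjusted p = 4.44e-11), and the Ras exchange factor Rasgef1c at 28.5 to 37.5 CPM (median 32.5) and 1.40 to 5.61 CPM (median 2.60) (log2 fold change -3.53 ± 0.21 SE, adjusted p = 3.57e-10). That the tissues did not overlap was a condition for entering this set, as for the largest rises and falls above.

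Ionotropic glutamate receptor subunits carry fast excitation, and 14 of 25 genes for glutamate receptors of all kinds were higher in hippocampus and 6 lower. With length offsets 14 were higher and 8 lower. Gria1, the AMPA receptor subunit inserted during long-term potentiation (gene ID 14799, chromosome 11, 57011618 to 57330244), lay at 348 to 460.2 CPM (median 356) in cortex and 1241 to 1482 CPM (median 1316) in hippocampus (log2 fold change 1.82 ± 0.06 SE, adjusted p = 5.05e-13). The NMDA receptor subunit Grin2b lay at 54.6 to 78.7 CPM (median 69.9) and 151 to 231 CPM (median 164) (log2 fold change 1.40 ± 0.11 SE, adjusted p = 5.33e-09), and the subunit Grin2a was 1.47 ± 0.08. No library of either tissue fell in the range of the other for Gria1 or Grin2b. The group 1 metabotropic receptor Grm5 was 1.08 ± 0.06. Toward cortex were the AMPA subunit Gria4 (-0.70 ± 0.05) and the presynaptic metabotropic receptors Grm8 (-1.38 ± 0.11) and Grm4 (-1.05 ± 0.13), so the AMPA subunits differed in direction.

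GABA-A receptors are pentamers whose subunit mix sets their place and kinetics. Gabra5, the alpha subunit of extrasynaptic receptors on CA1 dendrites, lay at 61.7 to 90.8 CPM (median 75.4) in cortex and 211 to 296 CPM (median 269) in hippocampus (log2 fold change 1.80 ± 0.07 SE, adjusted p = 2.23e-12). Gabrb1 was 1.18 ± 0.07 and Gabra2 0.998 ± 0.08. In the other direction, the delta subunit Gabrd, partner in tonic inhibition, lay at 71.6 to 91.6 CPM (median 80.9) and 20.7 to 34.2 CPM (median 23.8) (log2 fold change -1.70 ± 0.08 SE, adjusted p = 2.18e-11), and Gabra3 was -1.01 ± 0.07. Over the 15 GABA receptor genes tested, 6 were higher and 4 lower in hippocampus, against 30.1% and 30.7% of all genes tested. With length offsets 6 were higher and 7 lower, and the list's median went from 0.05 to -0.06.

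**Figure D3:**
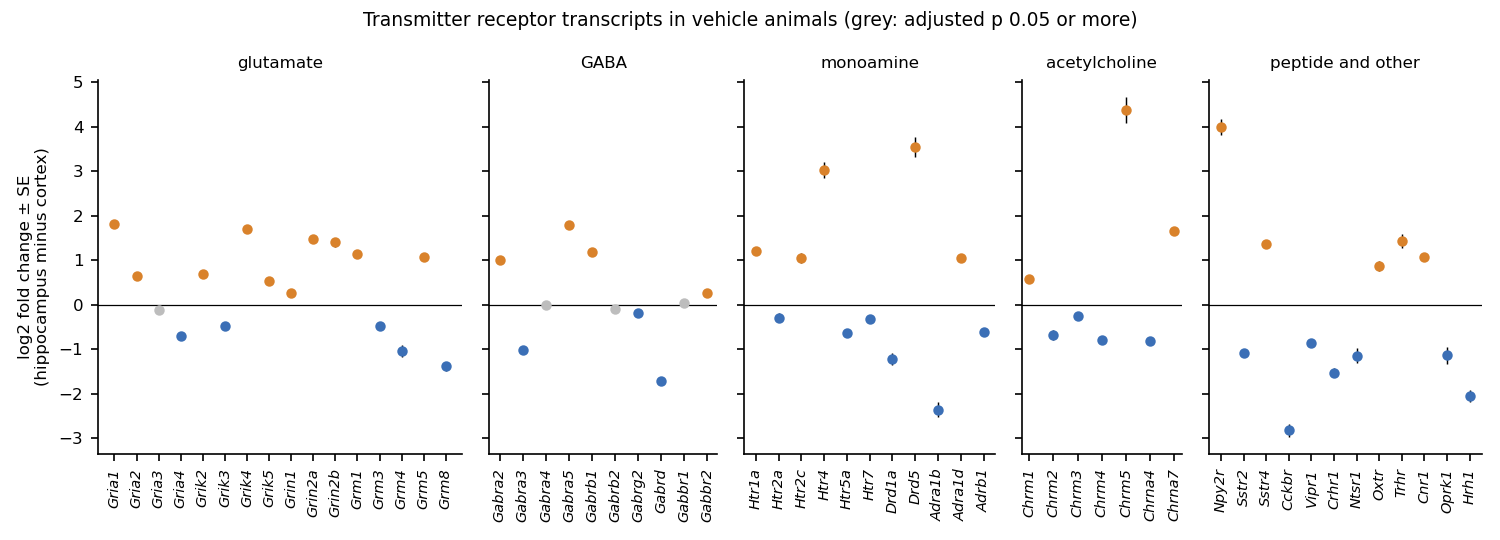
Log2 fold changes (hippocampus minus cortex, bars ± SE) of transmitter receptor genes in vehicle animals, orange where higher in hippocampus, blue where higher in cortex and grey where the adjusted p was 0.05 or more. Each receptor family holds genes on both sides of 0, with Npy2r and Chrm5 highest and Cckbr lowest.

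Ion channels that set excitability also differed subunit by subunit. Of 17 potassium and HCN channel genes, 10 were higher in hippocampus and 4 lower, and none differed by more than 2-fold. The A-type channels Kcnd3 (0.86 ± 0.05) and Kcnd2 (0.79 ± 0.05) were higher, while the Kv4 auxiliary proteins Kcnip3 (-0.65 ± 0.05) and Kcnip1 (-0.40 ± 0.06) were lower. With length offsets the median of this list went from 0.40 to 0.09, with 8 higher and 4 lower. All 22 sodium and calcium channel genes passed, 14 higher and 8 lower in hippocampus, and with length offsets 9 and 8 did. The T-type calcium channel Cacna1h lay at 31.9 to 47.5 CPM (median 36.1) in cortex and 127 to 163 CPM (median 151) in hippocampus (log2 fold change 1.97 ± 0.08 SE, adjusted p = 3.66e-12). The R-type channel Cacna1e was 1.36 ± 0.06, the L-type channel Cacna1c 1.296 ± 0.06 and the AMPA receptor auxiliary Cacng8 1.62 ± 0.08. The sodium channel subunit Scn4b, which gives the resurgent current of fast-spiking cells, lay at 88.3 to 149 CPM (median 122) and 23.1 to 39.6 CPM (median 30.8) (log2 fold change -2.005 ± 0.13 SE, adjusted p = 8.18e-10), and the Dravet syndrome gene Scn1a was -0.68 ± 0.09. Separation between tissues was complete for Cacna1h and Scn4b. The cortex libraries of animals 957, 958 and 963 were the highest in Scn4b (142 to 149 CPM). They were also the highest cortex libraries in summed striatal genes (452 to 525 CPM), and the part of striatal RNA in Scn4b was not tested.

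Receptors for the ascending modulators differed most for a few low-abundance genes. The serotonin receptor Htr4 lay at 1.55 to 5.77 CPM (median 2.64) in cortex and 18.5 to 28.9 CPM (median 23.9) in hippocampus (log2 fold change 3.03 ± 0.17 SE, adjusted p = 1.72e-10). Htr1a, the inhibitory receptor of pyramidal cells, lay at 18.8 to 26.9 CPM (median 22.2) and 48.7 to 55.4 CPM (median 54.4) (log2 fold change 1.22 ± 0.08 SE, adjusted p = 4.62e-10), and Htr2c was 1.04 ± 0.11. Htr5a was lower (-0.64 ± 0.09). Htr2a, the receptor on which hallucinogens act in cortical pyramidal cells, lay at 12.2 to 19.9 CPM (median 16.2) in cortex and 11.2 to 14.8 CPM (median 13.6) in hippocampus, overlapping ranges (log2 fold change -0.29 ± 0.10 SE, adjusted p = 0.0232). That call was lost when any of 3 libraries was left out (cortex 957, cortex 958 or hippocampus 963, adjusted p up to 0.0872 over these fits) and with the animal as a block (adjusted p = 0.0504). Of 12 serotonin receptors, 6 were higher and 3 lower.

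Of 10 dopamine and adrenergic receptor genes tested, 4 were higher and 4 lower, against 30.1% and 30.7% of all genes tested. The dopamine receptor Drd5 lay at 1.07 to 4.66 CPM (median 1.66) in cortex and 20.1 to 27.9 CPM (median 22.04) in hippocampus (log2 fold change 3.54 ± 0.22 SE, adjusted p = 4.45e-10), while its relative Drd1a lay at 9.19 to 19.8 CPM (median 13.8) and 4.87 to 7.73 CPM (median 6.56) (log2 fold change -1.21 ± 0.13 SE, adjusted p = 6.16e-07). The D1-class pair thus differed in opposite directions. The adrenergic receptor Adra1b was -2.36 ± 0.17 and Adra1d 1.06 ± 0.07, again on opposite sides. Among 12 acetylcholine receptors, 7 were higher and 4 lower. The muscarinic receptor Chrm5 rose from 0 to 0.635 CPM (median 0.194) to 2.72 to 5.18 CPM (median 4.60) (log2 fold change 4.38 ± 0.29 SE, adjusted p = 1.22e-09), and the nicotinic subunit Chrna7 lay at 9.48 to 15.95 CPM (median 11.2) in cortex and 34.8 to 40.9 CPM (median 35.4) in hippocampus (log2 fold change 1.66 ± 0.09 SE, adjusted p = 1.73e-10). Chrna4 was -0.82 ± 0.10. The cannabinoid receptor Cnr1, made in quantity by cholecystokinin interneurons, was 1.07 ± 0.05 and the histamine receptor Hrh1 -2.04 ± 0.14, in a list of 10 receptor genes with 2 higher and 5 lower.

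Neuropeptides were mostly lower in hippocampus and their receptors mostly higher. Of 21 neuropeptide genes tested, 12 were lower and 4 higher, and of 21 receptors 13 were higher and 5 lower. With length offsets the neuropeptides, whose genes are short, gave 10 lower and 6 higher. Vasoactive intestinal peptide (Vip), the mark of disinhibitory interneurons, lay at 62.7 to 87.1 CPM (median 68.0) in cortex and 15.9 to 27.9 CPM (median 19.7) in hippocampus (log2 fold change -1.79 ± 0.10 SE, adjusted p = 2.34e-10). Corticotropin-releasing hormone (Crh) lay at 5.31 to 9.10 CPM (median 8.74) and 1.44 to 3.55 CPM (median 1.97) (log2 fold change -1.94 ± 0.20 SE, adjusted p = 2.90e-07), and the neurokinin B precursor Tac2 was -1.41 ± 0.14. Gastrin-releasing peptide (Grp) was higher (0.99 ± 0.13).

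On the receptor side, the neuropeptide Y receptor Npy2r, which inhibits release at mossy fibre and Schaffer collateral terminals, lay at 3.44 to 10.3 CPM (median 5.12) in cortex and 58.5 to 102 CPM (median 84.0) in hippocampus (log2 fold change 3.99 ± 0.18 SE, adjusted p = 8.74e-12). Cckbr, the brain cholecystokinin receptor, lay at 70.3 to 91.7 CPM (median 76.7) and 6.73 to 20.4 CPM (median 9.91) (log2 fold change -2.82 ± 0.14 SE, adjusted p = 3.36e-11). Neither gene had overlapping ranges. The somatostatin receptors split, with Sstr4 at 1.36 ± 0.09 and Sstr2 at -1.09 ± 0.08, and the CRH receptor Crhr1 was -1.53 ± 0.10, the same direction as its ligand. The oxytocin receptor Oxtr was 0.88 ± 0.11.

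Interneuron genes differed in both directions. Parvalbumin (Pvalb), of fast-spiking basket cells, lay at 52.0 to 70.2 CPM (median 59.7) in cortex and 18.2 to 31.3 CPM (median 23.9) in hippocampus (log2 fold change -1.32 ± 0.09 SE, adjusted p = 1.28e-09). Neuronal nitric oxide synthase (Nos1), of neurogliaform and ivy cells, lay at 15.001 to 23.1 CPM (median 16.5) and 70.8 to 89.2 CPM (median 79.2) (log2 fold change 2.10 ± 0.10 SE, adjusted p = 2.28e-11). The neurogliaform gene Ndnf was 1.15 ± 0.13, the serotonin receptor channel Htr3a 1.10 ± 0.08 and the caudal ganglionic eminence gene Adarb2 1.02 ± 0.10. The general GABA synthesis genes differed little, Gad1 by -0.16 and Gad2 by 0.30, both chosen for naming after their values were seen. Vip, the mark of disinhibitory interneurons given above, was lower. In the whole list of 26 genes, 13 were higher and 7 lower, 4 in each direction by more than 2-fold. With length offsets 13 were higher and 10 lower, 3 and 4 of them by more than 2-fold. General neuronal genes went down more often than up, 9 of 14 against 2. The SNARE protein Snap25 lay at 2832 to 3689 CPM (median 3075) in cortex and 1859 to 2224 CPM (median 2026) in hippocampus (log2 fold change -0.64 ± 0.05 SE, adjusted p = 8.18e-09). The vesicular glutamate transporter Slc17a7 did not pass, with overlapping ranges and medians of 1176 and 1257 CPM (0.07, adjusted p = 0.14). It passed when the hippocampus of animal 955 was left out, and with length offsets (adjusted p = 0.0415).

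Glucocorticoids act on the brain through a high-affinity mineralocorticoid receptor and a lower-affinity glucocorticoid receptor. The former, Nr3c2 (gene ID 110784, chromosome 8, 76902508 to 77243639), lay at 25.7 to 50.9 CPM (median 28.9) in cortex and 199 to 252 CPM (median 221) in hippocampus (log2 fold change 2.83 ± 0.11 SE, adjusted p = 1.99e-12). The latter, Nr3c1, lay at 138 to 162 CPM (median 151) and 107 to 134 CPM (median 119) (log2 fold change -0.32 ± 0.06 SE, adjusted p = 1.74e-04). Neither pair of ranges overlapped, and the receptors differed in opposite directions. The receptor co-chaperone Fkbp5, a target of both receptors, was 0.80 ± 0.08 and its relative Fkbp4 -0.36 ± 0.05. The CRH-binding protein Crhbp was 0.29 ± 0.06. Of 13 genes tested, 4 were higher and 7 lower in hippocampus.

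Kinases and scaffolds of synaptic plasticity were higher in hippocampus for 18 of 32 genes and lower for 10. Camk2a, the kinase needed for potentiation, lay at 2754 to 3112 CPM (median 2892) in cortex and 3391 to 4098 CPM (median 3930.4) in hippocampus (log2 fold change 0.41 ± 0.04 SE, adjusted p = 1.69e-07). Protein kinase C isoforms were higher, with Prkca at 210.0 to 264 CPM (median 223) in cortex and 426 to 635 CPM (median 530.2) in hippocampus (log2 fold change 1.20 ± 0.06 SE, adjusted p = 3.14e-11) and Prkce at 0.88 ± 0.04. The postsynaptic scaffold Homer3 was 2.54 ± 0.11. The lower members were Camkk2 (-0.96 ± 0.05), the scaffold SAP97 (Dlg1, -0.95 ± 0.05), Camk2g (-0.79 ± 0.06) and the kinase A subunit Prkar2b (-0.74 ± 0.08). Members of one kinase family thus fell on both sides.

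Immediate early genes are transcribed within minutes of neuronal firing without new protein synthesis, and 11 of 16 were lower in hippocampus, with a median of -0.76. The promoters of some are printed because members of the list moved together and many such genes are driven by cAMP response element sites. The windows are the 250 bases before the start of transcription, 5′ to 3′ on the gene's strand, from RefSeq on GRCm38.p6. Capitals mark the letters TGACGT on either strand, which the full palindrome TGACGTCA contains on both strands, so that its matches overlap.
Fos, chr12:85473640-85473889, plus strand: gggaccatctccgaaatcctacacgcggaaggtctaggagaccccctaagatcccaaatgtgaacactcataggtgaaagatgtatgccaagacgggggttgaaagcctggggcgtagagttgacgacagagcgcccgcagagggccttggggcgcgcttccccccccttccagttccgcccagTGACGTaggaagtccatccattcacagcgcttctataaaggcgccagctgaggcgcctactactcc
Npas4, chr19:4989972-4990221, minus strand: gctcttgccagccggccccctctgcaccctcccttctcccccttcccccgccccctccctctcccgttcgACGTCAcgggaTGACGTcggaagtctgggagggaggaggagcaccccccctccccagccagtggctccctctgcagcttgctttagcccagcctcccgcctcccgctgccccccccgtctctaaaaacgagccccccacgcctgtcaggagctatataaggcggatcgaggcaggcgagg
Dusp1, chr17:26508473-26508722, minus strand: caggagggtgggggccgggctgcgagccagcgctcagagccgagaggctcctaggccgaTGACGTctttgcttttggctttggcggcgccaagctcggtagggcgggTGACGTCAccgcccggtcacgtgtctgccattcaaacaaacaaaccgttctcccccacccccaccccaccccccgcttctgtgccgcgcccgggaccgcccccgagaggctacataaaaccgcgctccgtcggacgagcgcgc
Nr4a1, chr15:101266596-101266845, plus strand: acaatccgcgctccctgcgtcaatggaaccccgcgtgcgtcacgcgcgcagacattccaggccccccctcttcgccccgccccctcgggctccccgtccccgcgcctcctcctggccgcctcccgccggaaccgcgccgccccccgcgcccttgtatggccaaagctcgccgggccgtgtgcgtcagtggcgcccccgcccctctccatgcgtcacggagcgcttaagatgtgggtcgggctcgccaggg
Fos has 1 match, 66 bases before the start, Npas4 has 2, Dusp1 has 3 of which 2 form the palindrome, and no match lies in this window of Nr4a1. Of the 16 listed genes, 11 had windows in the table used, and 7 of these hold TGACGT in at least 1 window: Fos, Egr2, Egr4, Npas4, Nr4a3, Dusp1 and Btg2. Over all 27025 genes with a window the share is 7.29%. The 7 genes include 2 that did not pass between the tissues, Egr4 and Btg2, and 1 that was higher in hippocampus, Nr4a3. Fos, Egr2, Npas4 and Dusp1 were lower in hippocampus. The part of these sites in the tissue difference was not tested.

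Fos, a subunit of the AP-1 factor (gene ID 14281, chromosome 12, 85473901 to 85477270), lay at 46.1 to 62.4 CPM (median 50.1) in cortex and 18.1 to 24.8 CPM (median 19.6) in hippocampus (log2 fold change -1.37 ± 0.08 SE, adjusted p = 1.12e-10). Arc, the capsid-like regulator of AMPA receptor endocytosis, lay at 327 to 469.7 CPM (median 416) and 157 to 172 CPM (median 162) (log2 fold change -1.36 ± 0.05 SE, adjusted p = 2.54e-12). The zinc finger factor Egr1 lay at 396 to 486 CPM (median 444) and 145 to 239 CPM (median 178) (log2 fold change -1.28 ± 0.09 SE, adjusted p = 2.07e-09). All 7 cortex libraries were above all 6 hippocampus libraries for these 3 genes. The MAP kinase phosphatase Dusp1 was -1.31 ± 0.10, and Npas4, a calcium-dependent factor of recently active neurons, -0.83 ± 0.10. Npas4 and Nr4a1 were named after their values had been seen. The orphan nuclear receptors differed from one another: Nr4a1 lay at 103 to 126 CPM (median 118) in cortex and 63.8 to 88.4 CPM (median 69.8) in hippocampus (log2 fold change -0.68 ± 0.07 SE, adjusted p = 4.41e-07), while Nr4a3 lay at 14.9 to 24.6 CPM (median 20.03) and 50.9 to 69.3 CPM (median 55.8) (log2 fold change 1.58 ± 0.10 SE, adjusted p = 4.38e-10). Bdnf, an activity-dependent neurotrophin, was slightly higher in hippocampus, at 49.6 to 59.5 CPM (median 56.8) against 56.5 to 78.1 CPM (median 69.0) (log2 fold change 0.29 ± 0.05 SE, adjusted p = 1.38e-04), with overlapping ranges.

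**Figure D4:**
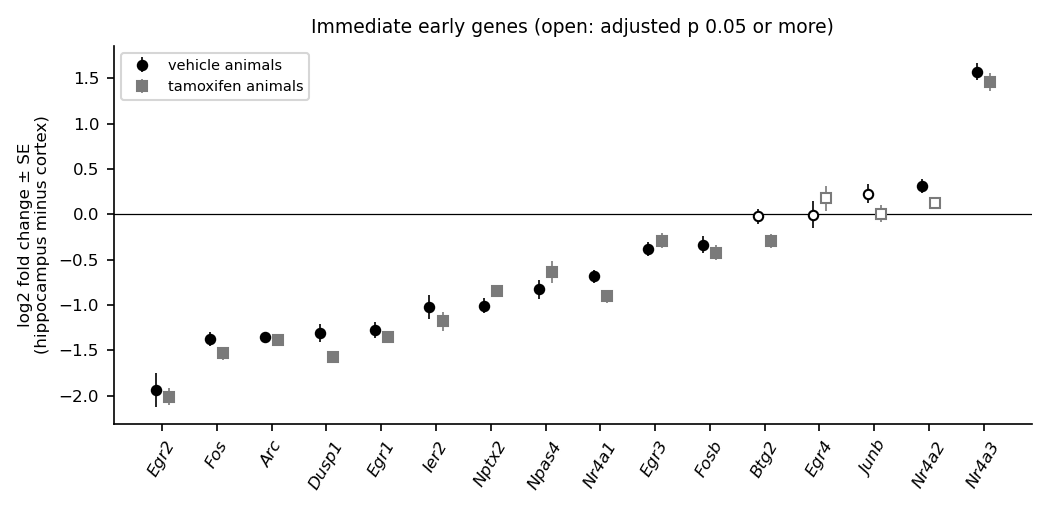
Log2 fold changes (hippocampus minus cortex, bars ± SE) of 16 immediate early genes in vehicle animals (black circles) and in tamoxifen animals (grey squares), open where the adjusted p was 0.05 or more. Egr2 (beside the more abundant Ado on the other strand), Fos, Arc, Dusp1 and Egr1 lie below -1 in both sets of animals and Nr4a3 lies above 1.

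Axon guidance genes were mostly higher in hippocampus. Of 39 semaphorins, plexins, neuropilins, slits, robos and netrins, 27 were higher in hippocampus and 8 lower, and with length offsets 20 and 11. Slit1, a repellent ligand of Robo receptors, lay at 37.4 to 67.2 CPM (median 51.3) in cortex and 244 to 324 CPM (median 295) in hippocampus (log2 fold change 2.49 ± 0.09 SE, adjusted p = 6.32e-13), and Slit3 was 1.75 ± 0.07. The semaphorin co-receptors Nrp1 and Nrp2 were 1.96 ± 0.08 and 2.07 ± 0.09. The repellent Sema3a, a ligand of Nrp1 that also enters perineuronal nets, lay at 33.5 to 45.8 CPM (median 39.1) in cortex and 4.95 to 12.9 CPM (median 5.59) in hippocampus (log2 fold change -2.44 ± 0.19 SE, adjusted p = 7.01e-09), the opposite direction to its receptor. Plxnd1 was -1.44 ± 0.10 and Sema7a -0.77 ± 0.06. Among Eph receptors and ephrins, 8 were higher and 7 lower of 19, against 30.1% and 30.7% of all genes tested. Epha6 (2.42 ± 0.07), Epha7 (1.69 ± 0.10) and Epha4 (1.23 ± 0.05) were higher, while the ligand Efna5 lay at 39.4 to 44.8 CPM (median 42.9) in cortex and 7.73 to 18.3 CPM (median 11.2) in hippocampus (log2 fold change -1.85 ± 0.14 SE, adjusted p = 3.78e-09).

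Adhesion molecules of the synapse gave 19 higher and 8 lower of 29, and with length offsets 13 and 11. The cerebellins, which bridge neurexins to glutamate delta receptors, were lower, Cbln2 at 38.4 to 55.5 CPM (median 46.0) in cortex and 5.53 to 16.6 CPM (median 8.65) in hippocampus (log2 fold change -2.26 ± 0.18 SE, adjusted p = 8.29e-09) and Cbln4 at -1.18 ± 0.10. The neuronal pentraxins differed in direction, with Nptx1 at 0.99 ± 0.06 and the activity-induced Nptx2 at -1.01 ± 0.08. Neuroligin 3 (Nlgn3) was 0.78 ± 0.04 and the neurexin ligand Lrrtm3 -1.26 ± 0.08. Classical cadherins gave 5 higher and 7 lower of 15, against 30.1% and 30.7% of all genes tested. Cdh9, which shapes mossy fibre synapses on CA3, lay at 9.50 to 16.1 CPM (median 12.6) in cortex and 30.0 to 56.0 CPM (median 47.2) in hippocampus (log2 fold change 1.89 ± 0.12 SE, adjusted p = 8.66e-10), and Cdh7 was -2.21 ± 0.18. Tissue ranges were separate for Cbln2 and Cdh9.

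In the Wnt pathway 11 of 30 genes were higher and 8 lower, against 30.1% and 30.7% of all genes tested, so these counts do not set the list apart. Wnt7b, a ligand that promotes dendrite growth, lay at 23.5 to 35.3 CPM (median 29.8) in cortex and 51.2 to 61.7 CPM (median 56.2) in hippocampus (log2 fold change 0.95 ± 0.08 SE, adjusted p = 3.46e-08), and its paralogue Wnt7a was 0.83 ± 0.08. Wnt9a (-1.67 ± 0.11) and Wnt10a (-2.19 ± 0.18) were lower. Of 16 neurotrophic factors and receptors, 12 were higher and 2 lower, with length offsets 7 and 4. Neurotrophin 3 (Ntf3) lay at 0.496 to 2.86 CPM (median 1.22) in cortex and 5.47 to 8.63 CPM (median 6.50) in hippocampus (log2 fold change 2.06 ± 0.26 SE, adjusted p = 2.62e-06), and its receptor Ntrk3 was 0.71 ± 0.06, the same direction. The GDNF co-receptor Gfra1 was 1.18 ± 0.06 and the neurturin co-receptor Gfra2 -0.91 ± 0.05.

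In the astrocyte, myelin, precursor and microglial lists together, 2 genes differed by more than 2-fold. Myelin genes were lower in hippocampus for 14 of 19 and higher for 1, with a median of -0.33. Myelin basic protein (Mbp) lay at 2087 to 2727 CPM (median 2293) in cortex and 1335 to 1765 CPM (median 1554) in hippocampus (log2 fold change -0.59 ± 0.06 SE, adjusted p = 2.56e-07). Precursor genes went the other way, 9 of 12 higher and 2 lower, and with length offsets 5 and 2. The precursor matrix protein Tnr was 0.70 ± 0.06. Astrocyte genes gave 9 higher and 6 lower of 18. Gfap, the intermediate filament of astrocytes, lay at 133 to 233 CPM (median 178) in cortex and 322 to 380.5 CPM (median 329) in hippocampus (log2 fold change 0.95 ± 0.10 SE, adjusted p = 3.18e-07), and Sox9 was 1.03 ± 0.08. Glutamine synthetase (Glul) was -0.41 ± 0.03 and Aldh1l1 -0.61 ± 0.05, so astrocyte markers did not share 1 direction.

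Microglial genes gave 3 higher and 7 lower of 17, with length offsets 3 and 1, and without cortex 966 and hippocampus 963 3 and 3. The list's median was -0.11, and 0.02 with length offsets. The lysosomal protease Ctss was -0.34 ± 0.06 and lost its call with length offsets (-0.12, adjusted p = 0.0841). The adhesion receptor Itgam was 0.35 ± 0.07. None of 12 endothelial genes was higher and 6 were lower, led by Esam (-0.63 ± 0.10). Perineuronal net and lectican genes gave 6 higher and 1 lower of 12.

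Genes of tissues beside the cortex and hippocampus were checked for dissection. Choroid plexus genes gave 2 of 15 higher, and 7 with the animal as a block. Ttr lay at 28.8 to 1113 CPM (median 88.4) in cortex and 28.1 to 2107 CPM (median 56.3) in hippocampus and did not pass (log2 fold change -0.10 ± 0.86 SE, adjusted p = 0.927), with animal 958 the highest in both. Among the 13 fits that leave out 1 library, it passed, as lower in hippocampus, in the one without the hippocampus of animal 958 (-2.12). The summed level of the choroid plexus genes was 2271 CPM in cortex and 4860 CPM in hippocampus of animal 958, and without that animal 396.8 to 769 CPM in cortex and 279.6 to 392 CPM in hippocampus, where the ranges did not overlap and hippocampus was the lower. Ependymal genes, of the ciliated lining of the ventricles, were higher for 6 of 8 in hippocampus, at 14.7 to 25.4 CPM summed in cortex and 17.1 to 49.0 CPM in hippocampus. Meningeal genes gave 7 lower and 3 higher of 16, and the prostaglandin synthase Ptgds lay at 722 to 942 CPM (median 768) in cortex and 138 to 572 CPM (median 322) in hippocampus (log2 fold change -1.299 ± 0.25 SE, adjusted p = 2.03e-04). All 4 red blood cell genes were higher in cortex, at 80.7 to 222.7 CPM summed against 18.2 to 134.3 CPM, 2 of them over 2-fold, and with length offsets 3 passed and none was over 2-fold. Of 13 striatal genes tested, 8 were higher in cortex and 2 in hippocampus, at 370.5 to 524.7 CPM summed against 249.2 to 277.2 CPM. The striatal factor Isl1 was at most 0.496 CPM in any library. The part of these tissues in other results was not tested.

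Large housekeeping complexes were lower in hippocampus almost gene by gene. Of 79 cytosolic ribosomal protein genes tested, 75 were lower and none higher, with a median of -0.54. Rps23 lay at 176 to 215 CPM (median 193) in cortex and 67.6 to 135 CPM (median 101) in hippocampus (log2 fold change -0.93 ± 0.07 SE, adjusted p = 1.13e-08). Of 36 subunits of respiratory complex I, 34 were lower and none higher (median -0.42), with Ndufb5 at -0.69 ± 0.06, and of 38 proteasome subunits 29 were lower and 2 higher (median -0.30), with Psmc5 at -0.64 ± 0.04. These genes are short, with median exon lengths of 975, 977 and 1586 bases against 3393 over all genes with a length. With length offsets the medians were -0.29, -0.15 and -0.10, and 63, 19 and 19 genes were lower against 2, 2 and 3 higher. Replication-dependent histone genes, also short (median 1088 bases), went the other way, with 12 of 18 tested higher and 1 lower. Clustered protocadherins gave 27 higher and 6 lower of 57. These histone genes are near-identical in sequence and clustered protocadherins share part of theirs. How shared reads were assigned is not given in the sources used here.

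**Figure D5:**
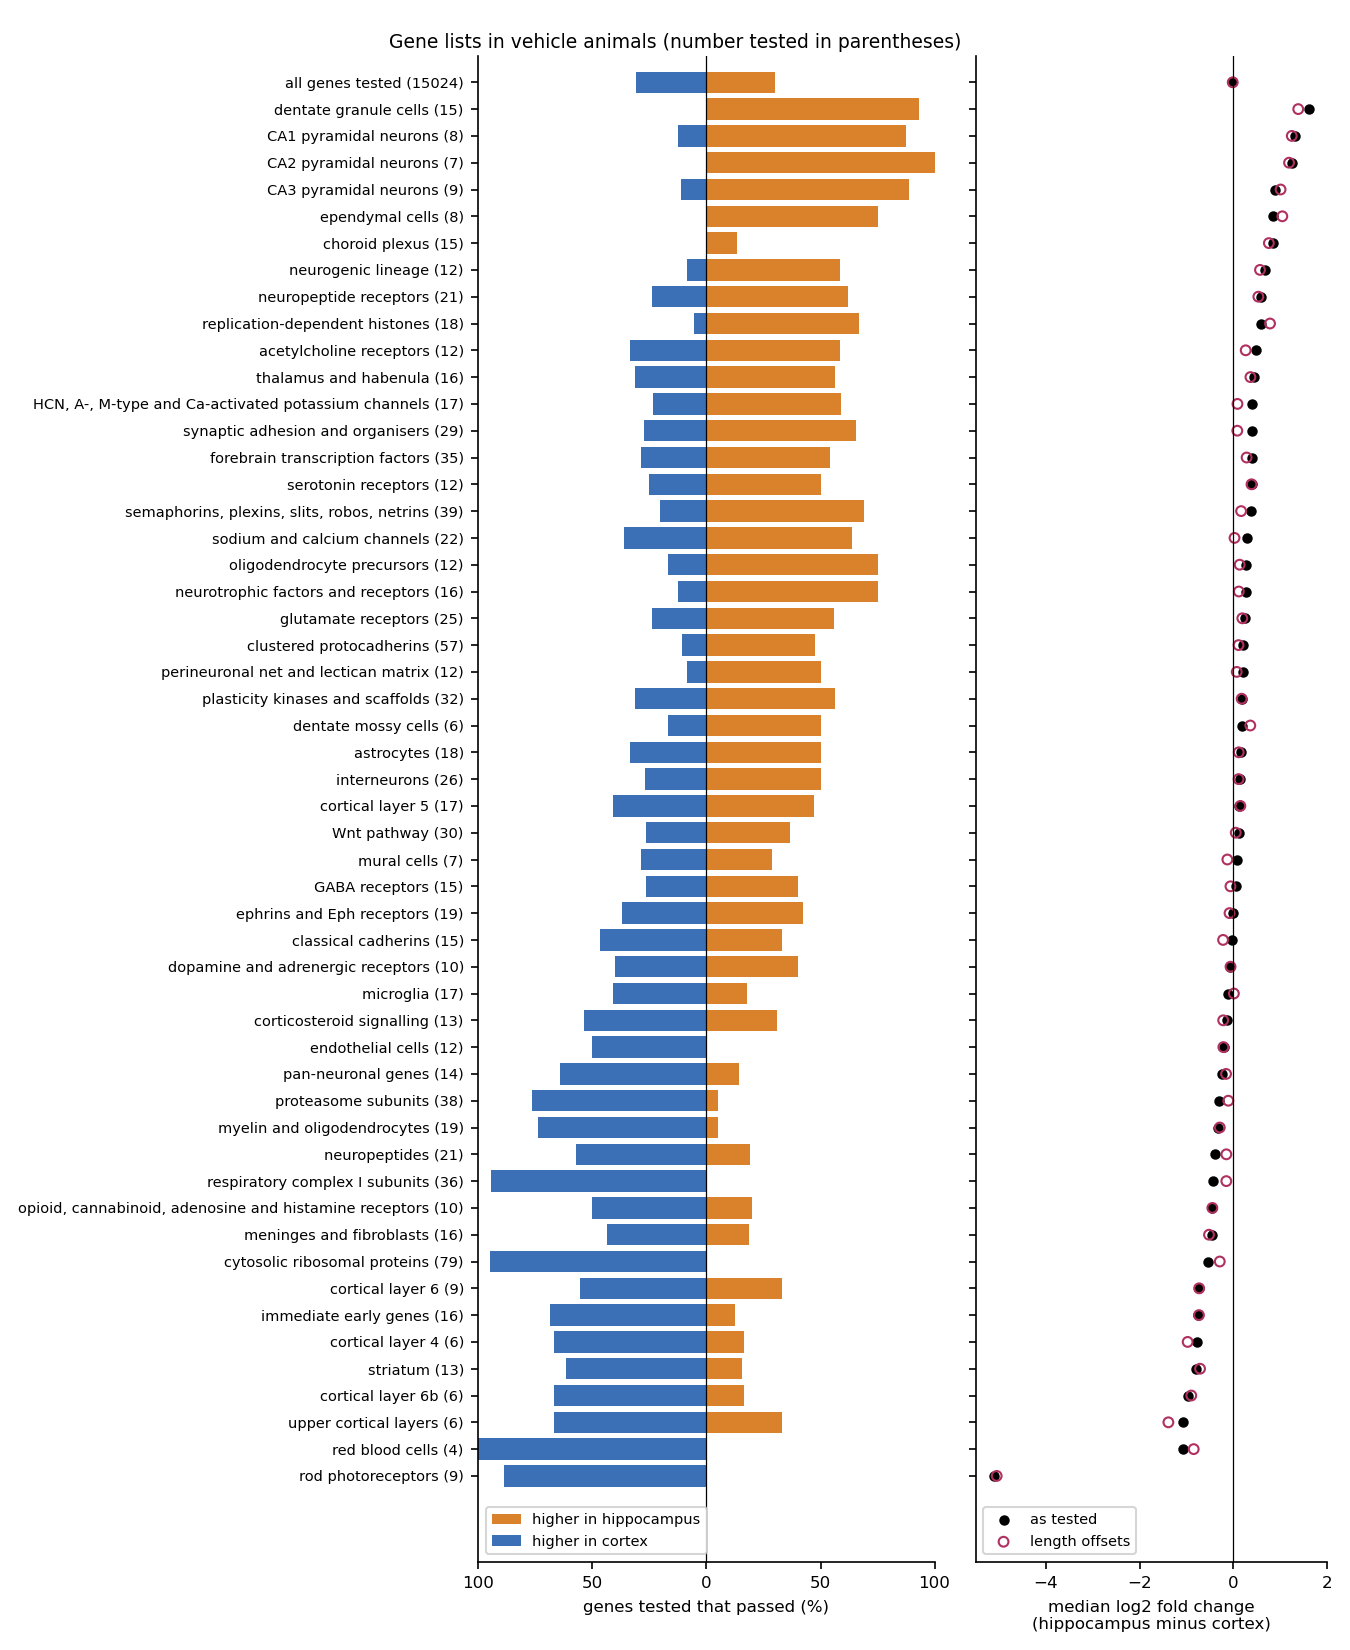
For each gene list, the percentage of tested genes called higher in hippocampus (orange, right) or in cortex (blue, left), and the median log2 fold change as tested (filled) and with length offsets (open). The top row holds all genes tested (median -0.01). Dentate granule cell and CA field genes lie next below it with medians of 0.89 to 1.62. Dentate mossy cell genes have a median of 0.18, and rod photoreceptor genes lie at the bottom.

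The difference between the tissues was then compared between the sexes. It differed for 1 of 15024 genes (0.00666%), while 1714 genes had an unadjusted p under 0.05, and DESeq2 called 160. The gene was Rnd1, a small GTPase that regulates dendrites (gene ID 223881, chromosome 15, 98669205 to 98677461). In females its mean fell from 45.2 CPM in cortex (41.0 to 47.4) to 6.13 in hippocampus (5.77 to 6.61), and in males from 39.1 CPM (37.2 to 40.9) to 11.8 (10.5 to 13.7). The male minus female difference was 1.15 ± 0.15 (SE, adjusted p = 0.00766). With the animal as a block no gene passed (Rnd1 adjusted p = 0.0543). The count was 0 without either library of animal 957, 37 without the hippocampus of animal 958, 67 without both libraries of animal 958, 5 or 8 without the cortex or hippocampus of animal 964, and 2 without the hippocampus of animal 966. In the tamoxifen animals the sexes differed for 0 genes, with 1950 at an unadjusted p under 0.05. The next smallest p belonged to Sla2, Ccl27b, Gapdh and Dynll2, each with an adjusted p of 0.0548, and Sla2 lies beside a more abundant gene on the other strand.

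The same comparison was made in the tamoxifen animals, which share no animal with those above. From these animals 7 cortex and 8 hippocampus libraries entered, and a further cortex library with 4567 counts was left out. Of 15757 genes tested there, 2030 (12.9%) passed with more than 2-fold. Over the 15017 genes tested in both sets, 636 of the 727 vehicle genes higher in hippocampus (87.5%) also passed this rule in tamoxifen animals, which is 79.9% of the 796 called there. Toward cortex, 822 of 915 (89.8%) did, 84.05% of 978. No gene over 2-fold in vehicle animals was called in the opposite direction in tamoxifen animals. Prox1 was 3.10 there, Fibcd1 4.10, Nr3c2 3.03, Gria1 1.90, Mef2c -2.31 and Fos -1.53. Cortex and hippocampus libraries differed in depth in the tamoxifen animals as well, from 11031386 to 22375163 counts against 33568828 to 38543218, so these animals do not separate tissue from library set.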

How the data were processed

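RNA of cortex and hippocampus was extracted with the AllPrep DNA/RNA kit and made into libraries with the TruSeq RNA Library Prep Kit v2, per the labels' protocols. The authors deposited tables of expected counts (estimated counts per gene, not whole) for 36172 genes, keyed by gene ID. The submitters' processing notes name DESeq and the builds mm10 and GRCm38, while the aligner, counter or strand setting is not given in the sources used here. The deposited vehicle values were rounded to whole numbers and joined by gene ID. No other normalization was taken from the authors.

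Libraries were grouped by the tissue, treatment and sex labels, and animals by the number in the titles. Genes were tested with edgeR 4.0.16 (R 4.3.3, limma 3.58.1): TMM scaling, filterByExpr with a minimum count of 10, a quasi-likelihood fit with 4 group means (tissue by sex), and Benjamini-Hochberg adjustment over 15024 genes. Each SE was derived from the F statistic and the estimate. Intervals of ratios from few counts and floors cover counting error only. At 10259768 counts, 10 counts are about 1 CPM. The procedure was tested on simulated data.

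The same animals gave both tissues, per the titles, and deviations of the 6 same-animal pairs correlated at r = 0.122 to 0.255. Pairs of different animals of the same sex gave r = -0.253 to 0.0872, below every same-animal pair, so the numbers pair the libraries. The animal as a block was an alternative, beside DESeq2 1.42.0, library totals, other filters, thinning, leaving out each library and the additions named in the text. One tamoxifen cortex library (animal 962, 4567 counts) was left out, and a hippocampus library of animal 965 is not analysed here.

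The comparison and its 54 gene lists were chosen with earlier results of these data known. Genes were named by rule: the 15 largest rises and falls of at least 5 CPM in the higher tissue without overlap (leaving out predicted genes, clones and pseudogenes), per list up to 4 members with the smallest p in each direction and up to 2 that did not pass, any member of lists of at most 12 genes, 28 genes always taken, and up to 10 genes with no count in one tissue. Npas4, Nr4a1, Gad1, Gad2, Pou4f1 and Isl1 fall outside it. Some genes that the rule takes are not reported here. Of the list genes, 20 are listed at 0 in every library, among them Mtap2 and Acta2, and were not analysed. Gene IDs were matched to RefSeq, exon lengths were found for 21624 genes, and coordinates are on GRCm38.p6.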

Additional observations from a re-analysis of the deposited data

Results flagged for a closer look

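In the 4 male cortex libraries, the group large enough for the outlier test, 22 of 206 named genes had 1 library farther from the others than Dixon's 95% value allows, and chance flags about 5% of groups. Of the 22, 15 were in animal 966. Genes of the dentate gyrus and CA fields were high there: Dsp at 19.45 CPM (others 0.2258 to 1.065), Prox1 at 24.98 (8.072 to 9.968), Lct at 23.41 (1.411 to 2.129), Dock10 at 65.52 (40.39 to 42.68), Lefty1 at 3.261 (0.3871 to 0.7338), and Avpr1b at 0.233, with no count in the others. Other genes higher in hippocampus were high there too, with Shisa6 at 32.15 CPM, Nr3c2 at 50.9, Nfib at 99.59, Drd5 at 4.659, Homer3 at 14.73 and Prkcd at 11.94. Zcchc5 was at 0.9318 CPM, with no count in the others. The cortex-enriched genes Cux2 (64.24 CPM) and Htr2a (12.64) were the lowest of the group there.

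In animal 963, Chrna4 (55.66 CPM) and Gabrd (83.6) were the highest and Bdnf (49.56) and Crh (5.306) the lowest of the male cortex libraries, and in animal 965 Grm5 (219.5) and Mki67 (2.637) were the highest and Hipk4 (39.61) the lowest.

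The tissue difference of Rnd1 differed between the sexes, by 1.1482 on the log2 scale (male minus female, adjusted p = 0.00766), with the hippocampus at 5.77 to 6.61 CPM in females and 10.5 to 13.7 in males. The call was lost with the animal as a block (adjusted p = 0.0543).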

How the results depend on the processing

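The 4526 and 4618 genes called toward hippocampus and cortex stayed within 1.5 times under every alternative run, and no gene over 2-fold changed direction when called under any of them. Leaving out 1 library at a time gave 4328 to 4536 and 4380 to 4580 genes, and 700 to 819 and 918 to 1017 over 2-fold. The count over 2-fold toward cortex was 417 with a mean count of at least 50 and 583 without genes that have a more abundant opposite-strand neighbour, alternatives that test fewer genes. With the animal as a block the counts were 4349 and 4398, and 737 and 935 over 2-fold, and the calls of Mpped1 and Htr2a were lost. The block also moved the counts of many lists, and only some are given here. Genes higher in hippocampus went from 2 to 7 for choroid plexus, from 1 to 2 for layer 4 and from 6 to 7 for ependymal cells. They went from 0 to 1 for endothelial cells and from 2 to 1 for general neuronal genes and for the proteasome. Genes lower there went from 8 to 11 for striatum, from 14 to 16 for myelin and from 6 to 8 for endothelial cells. For the Wnt pathway they went from 8 to 6. The number of genes differing between the sexes was 1, and it was 160 with DESeq2, 16 without a filter, 6 with hippocampus thinned to cortex depth, 67 without animal 958, 0 with the block and 0 to 37 when 1 library was left out, and the cause was not tested. Scaling by library totals moved the median of all genes from -0.01 to -0.04. Depth, library set and tissue cannot be told apart, and the median of the listed microglial, mural and GABA receptor genes changed sign with length offsets. For small RNA genes the median of -0.13 over 12 genes cannot be compared, since only 1 of them has a length (0.89 with offsets). Of the genes named, 4 that did not pass changed sign without passing, apart from Ttr in the fit given above. Btg2 (-0.02) was 0.0006 with thinning, 0.0275 with length offsets, 0.0189 without cortex 966 and hippocampus 963, and -0.0674 to 0.0505 with 1 library left out. Egr4 (-0.0057) was 0.0123 without a filter, 0.1040 with length offsets and -0.13 to 0.12 with 1 library left out. Mki67 (0.05) was -0.2650 with length offsets and -0.0496 to 0.16 with 1 library left out, and Ttr (-0.1015) was 0.0240 with the replicate block, 0.0756 with length offsets and -2.12 to 1.43 with 1 library left out.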
